A study of Mus musculus with 2 samples.

Results

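MHC class II presentation was followed through 10 genes, chosen as the array rows whose gene name was H2-Aa, H2-Ab1, H2-Eb1, H2-DMa, H2-DMb1, H2-DMb2, H2-Oa, H2-Ob, Cd74 or Ciita, out of 24813 named genes on the array. They had 19 probes of 60 bases, with 1 spot each. RNA came from CD11b- and Ly6C-labelled monocytes sorted from the spleens of ICR mice, either 5/6 nephrectomized (5/6Nx, 1 array) or sham-operated (1 array), 8 weeks after the operation. A 5/6 nephrectomy removes most of the kidney tissue and serves as a model of chronic kidney disease, and ICR is an outbred stock. The labels state neither the number of mice per RNA sample nor the MHC haplotypes of the mice.

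MHC class II molecules carry peptides from taken-up protein to the cell surface, where the T cell receptors of CD4 T cells read them. An alpha and a beta chain assemble with the invariant chain, proteases trim the invariant chain in endosomes, and the DM chaperone then exchanges its last fragment for a peptide, while DO restrains DM. Transcription of these genes rests on the coactivator Ciita, which interferon gamma induces in macrophages. Monocytes carry little class II at rest, whereas B cells and dendritic cells carry much.

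The peptide-presenting chains, the invariant chain and Ciita were all about 20-fold or more higher on the 5/6Nx array, the DM chains were between 2- and 3-fold higher, and of the DO chains 1 was far higher and the other dim on both arrays. Of the 10 genes, 8 were measured, meaning well above background on both arrays by the software's call, and on the 5/6Nx array 7 of these 8 were higher by 2-fold or more, with 0 lower by as much. Over all 15715 measured genes, the share past 2-fold was 12.3% on the higher side and 10.9% on the lower. Within the brightness range of the measured members, which holds 13198 genes, the share on the higher side was 13.0%. A difference of at least 8-fold was reached by 5 of the 8, against 2.54% of all measured genes. The median difference of the 8 was 4.39 in log2 units, and that of all measured genes was -0.12. All differences are 5/6Nx minus sham of log2 intensity scaled to each array's 75th percentile, and a gene with several measured probes is represented by its brightest one. Each group is a single array, so there is no replicate check and no p-value, and differences between mice, sorts or labellings cannot be told apart from the operation. The error after each difference is the software's own for the spots, which includes a set proportional error of 10%.

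**Figure D1:**
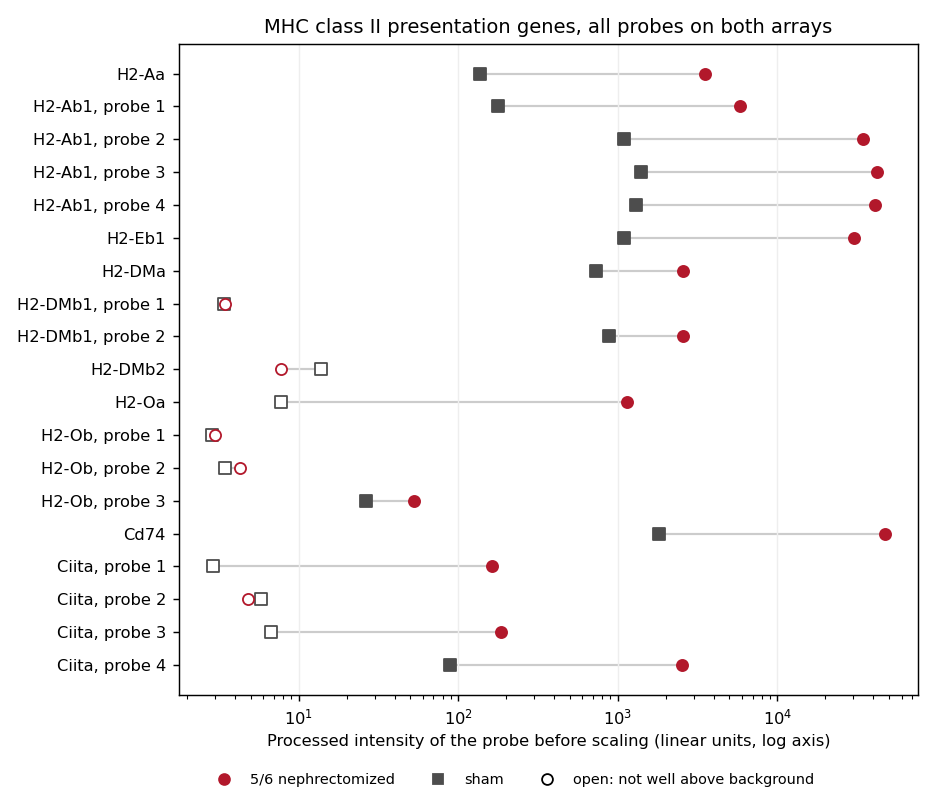
Processed intensity before scaling (log axis) of all 19 probes of the 10 genes, with circles for the 5/6 nephrectomized array and squares for the sham array, open where the spot was not well above background. Probes of a gene run in map order; the H2-Ab1, H2-Aa, H2-Eb1 and Cd74 circles lie far to the right of their squares, the H2-DMa and H2-DMb1 pairs lie closer, and 5 probes are open on both arrays.

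The 5/6Nx array had 67.0% of its 59305 non-control spots above background by the software's call and the sham array 63.0%, no spot was saturated, and the 75th percentile was an intensity of 547.5 on the 5/6Nx array and 442.1 on the sham array. The choice of scaling shifts all genes together. The genes at least 2-fold apart were higher in 52.8% of cases with the 75th percentile, in 40.8% with median scaling and in 77.3% with scaling to spike-in controls, and the median of all genes was -0.27 and 0.26 in the last 2. The monocyte genes Itgam, which encodes the sort antigen CD11b, and Csf1r, the receptor for the growth factor M-CSF, were bright on both arrays. Itgam read 31995 on the 5/6Nx array and 33016 on the sham array, and Csf1r 72856 and 70611 in the same order. Their differences were -0.35 and -0.26, and the other measured probe of Itgam was at -1.18. Of 11 monocyte markers, 5 had a positive difference past 2-fold and 1 a negative one. Ly6c1 and Ly6c2, genes of the other sort antigen, were both at 1.98, Fcgr1 at 2.63 and Cx3cr1 at -4.24. Whether the sorted cells were alike on both arrays was not tested.

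H2-Ab1 encodes the beta chain of the class II molecule I-A, and it is the only one of the I-A and I-E chains among the 10 genes that several probes read. All 4 probes lie on chromosome 17 (mm9). They read 5821, 34509, 42258 and 41202 on the 5/6Nx array, against 177, 1089, 1401 and 1308 on the sham array. Their differences were 4.73, 4.68, 4.61 and 4.67, and the probes thus differed from each other by less than the software's error of 0.20 to 0.21 for any one of them. The third and the fourth probe, A_55_P1962747 (chr17:34406296-34406355) and A_55_P2146560 (chr17:34406305-34406363), share 51 bases with a single difference, T51C counted from the 5′ end of the third probe. The 30 shared bases around it are shown because class II genes are highly polymorphic and the pair reads the same place with either base, which is in capitals.
A_55_P1962747: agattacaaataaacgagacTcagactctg
A_55_P2146560: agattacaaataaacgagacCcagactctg
The probe with T gave a 24.4-fold and the probe with C a 25.4-fold higher intensity on the 5/6Nx array. How well the probes of H2-Ab1 or of the other genes match the alleles of these mice was not tested, and this pair differs at a single base only.

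H2-Aa, the alpha chain that pairs with H2-Ab1, read 3540 on the 5/6Nx array and 138 on the sham array (chr17:34421285-34421344). The difference was 4.37 ± 0.21, a 20.7-fold higher intensity. H2-Eb1, the beta chain of the second class II molecule, I-E, read 30352 on the 5/6Nx array and 1096 on the sham array (chr17:34453075-34453134), a difference of 4.48 ± 0.20 or 22.4-fold. The 3 chains thus lay within 0.23 log2 units of each other with the reported processing. Over 11 alternative ways of processing H2-Aa went as low as 3.94, while H2-Ab1 went no lower than 4.46 and H2-Eb1 no lower than 4.33. Only 1.14% to 1.30% of the measured genes had a larger difference than any one of H2-Ab1, H2-Eb1 and H2-Aa. Levels of different probes are not set against each other, since each probe has its own brightness.

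Ciita was read by 4 probes on chromosome 16 (mm9). The brightest, at 10526458 to 10526517, read 2529 on the 5/6Nx array and 89.4 on the sham array, a difference of 4.51 ± 0.21 or 22.9-fold. Another probe of the same transcripts, at 10525904 to 10525963, read 185 on the 5/6Nx array and 6.67 on the sham array, where it was not well above background, which gives a difference of at least 11.7-fold. The probe of the cDNA AK163054, at 10492271 to 10492330, read 162 on the 5/6Nx array and 2.92 on the sham array and was at least 10.3-fold higher. The probe of the cDNA AK155311, at 10512788 to 10512847, was not well above background on either array, at 4.84 on the 5/6Nx array and 5.77 on the sham array. Only the brightest probe was measured on both arrays. Such a bound divides the scaled bright value by a floor, or by the dim reading itself where that was higher. The floor on the sham array was an intensity of 12.8, the dimmest of its probes well above background. It is not a strict detection limit, since H2-DMb2 at 13.9 on the sham array missed the background call too. Each fold given with at least is meant in this sense.

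Cd74, the invariant chain that fills the peptide groove during assembly, had 1 probe, on chromosome 18 (60972075 to 60972132, mm9). It read 47162 on the 5/6Nx array and 1807 on the sham array. Its difference of 4.40 ± 0.20, or 21.1-fold, lay inside the range of the 3 chains, 4.37 to 4.61. Ciita at 4.51 did so too, but went as low as 3.87 over the 11 alternatives.

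The chaperone genes stood apart from that level. H2-DMa, the alpha chain of DM, read 2572 on the 5/6Nx array and 731 on the sham array, a difference of 1.51 ± 0.20 or 2.84-fold. Its probe spans 564 bases of chromosome 17 (34274300 to 34274863, mm9) with 60 bases of sequence. H2-DMb1, a beta chain of DM, read 2577 on the 5/6Nx array and 878 on the sham array (34297109 to 34297168), a difference of 1.25 ± 0.20 or 2.37-fold. Its other probe, at 34290109 to 34290168, stayed at background, with 3.48 on the 5/6Nx array and 3.40 on the sham array. The 2 DM chains lay within 0.26 log2 units of each other and 2.87 below the lowest of the 3 presenting chains, which is far more than the errors of the spots. Scaling by a constant moves all genes alike, so that this gap does not depend on it. H2-DMb2, the other DM beta chain of the mouse, read 7.73 on the 5/6Nx array and 13.9 on the sham array and was not well above background on either (34284764 to 34284823).

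The 2 chains of DO, which is otherwise known mainly from B cells, thymic epithelium and some dendritic cells, did not move together. H2-Oa, the alpha chain, read 1142 on the 5/6Nx array and 7.72 on the sham array (34232033 to 34232092). Before the software's detrending its spot averaged 1042 over a local background of 59 on the 5/6Nx array, and 75.3 over 60 on the sham array. The sham spot was not well above background, and the 5/6Nx value stood at least 72.2-fold over it, the largest bound or fold among the 10 genes. Detection by the 5/6Nx array alone applied to 6.43% of all named genes. H2-Ob, the beta chain, read 52.9 on the 5/6Nx array and 26.5 on the sham array with its brightest probe, a difference of 0.69 ± 0.26 or 1.61-fold. This probe, which spans 369 bases (34380481 to 34380849), was dim on both arrays, and the other 2 probes of H2-Ob were at background on both, at 3.0 and 4.32 on the 5/6Nx array and 2.87 and 3.48 on the sham array. With spike-in scaling the H2-Ob difference was 1.07, past 2-fold, and with normexp background correction it was 0.11.

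**Figure D2:**
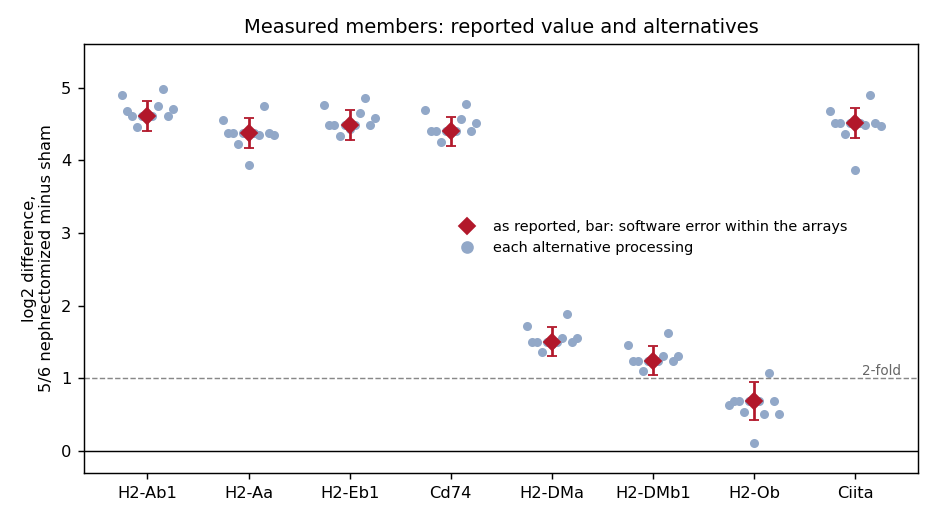
Difference in log2 units (5/6 nephrectomized minus sham) of the 8 genes measured on both arrays. Diamonds are the reported values with the software's error for the spots, and dots are the 11 alternatives; H2-Ab1, H2-Aa, H2-Eb1, Cd74 and Ciita stay above 3.8, H2-DMa and H2-DMb1 between 1 and 2, and H2-Ob between 0.11 and 1.07.

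Class II promoters are known for an X box, which binds the RFX complex, and a Y box, which binds NF-Y, at a fixed spacing ahead of the start. The RefSeq promoter table (GRCm38.p6, 250 bases before to 50 after a start) holds 7 of the 10 genes, and Cd74, Ciita and H2-Ab1 were not looked at. Searched on both strands were an X box core spelled AGNNACNNNTG and, 10 to 30 bases after it on the same strand, the Y box core ATTGG. This pair occurred in 3 of the 7 genes, H2-Eb1, H2-DMb1 and H2-Ob, and in 0.286% of all 32851 promoters. Searched on its own, the X core was in 4 of the 7 genes and in 14.8% of all promoters. The Y core was in 7 of the 7 genes, counting any start of a gene, and in 37.4% of all promoters. The stretches below all lie on chromosome 17, and they show the shared layout next to differences that range from 4.48 for H2-Eb1 to 0.69 for H2-Ob. Both cores are in capitals, and for H2-Aa, where the X core was not matched, the Y core only.
H2-Eb1: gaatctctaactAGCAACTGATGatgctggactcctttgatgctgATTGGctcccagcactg
H2-Eb2: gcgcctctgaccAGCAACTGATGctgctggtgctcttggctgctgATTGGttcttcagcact
H2-DMb1: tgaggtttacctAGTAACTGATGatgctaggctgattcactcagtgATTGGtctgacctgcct
H2-Ob: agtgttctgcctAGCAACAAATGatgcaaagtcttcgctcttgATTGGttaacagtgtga
H2-Aa: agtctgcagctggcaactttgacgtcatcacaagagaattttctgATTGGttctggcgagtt
These are chr17:34305763-34305824 for H2-Eb1, chr17:34325530-34325591 for H2-Eb2, chr17:34153084-34153146 for H2-DMb1 and chr17:34238805-34238864 for H2-Ob, all on the plus strand, and chr17:34287855-34287916 on the minus strand for H2-Aa. The cores were 22 bases apart in H2-Eb1 and H2-Eb2, 23 in H2-DMb1 and 20 in H2-Ob, and the X core began 92, 133, 95 and 88 bases before the start in the same order. A match describes these letters in the reference genome and is not a measured binding site.

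H2-Eb2, a further class II beta chain gene next to H2-Eb1, read 67.2 on the 5/6Nx array and 15 on the sham array with the brighter of its probes, and H2-Ea, named H2-Ea-ps in the files, the alpha chain gene of I-E that is not functional in some haplotypes, read 49.4 on the 5/6Nx array and 2.76 on the sham array. On the sham array neither passed the background call. The sham reading of H2-Eb2 lay above the floor of 12.8, so its 3.62-fold is the plain ratio of the scaled readings. That is a difference of 1.86 ± 0.36. The bound for H2-Ea was at least 3.12-fold. All of these readings were dim.

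The genes that lie between and beside the class II genes on chromosome 17 did not all follow. Past 2-fold, 5 of 10 measured neighbours were higher and 1 was lower, and their median was 1.45. The higher ones were H2-K1, a class I heavy chain, and the 4 genes of class I peptide supply that stand between H2-DMb1 and H2-Ob, led by the peptide transporter genes Tap1 at 5.13 and Tap2 at 4.82 and the proteasome subunit gene Psmb9 at 4.74. Brd2, a bromodomain gene between H2-Oa and H2-DMa, read 13282 on the 5/6Nx array and 10065 on the sham array, a difference of 0.09, with its other measured probe at -0.36. Notch4, a receptor gene beyond the class II genes, read 35.8 on the 5/6Nx array and 6250 on the sham array with the only one of its 3 probes that was measured, a difference of -7.76.

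**Figure D3:**
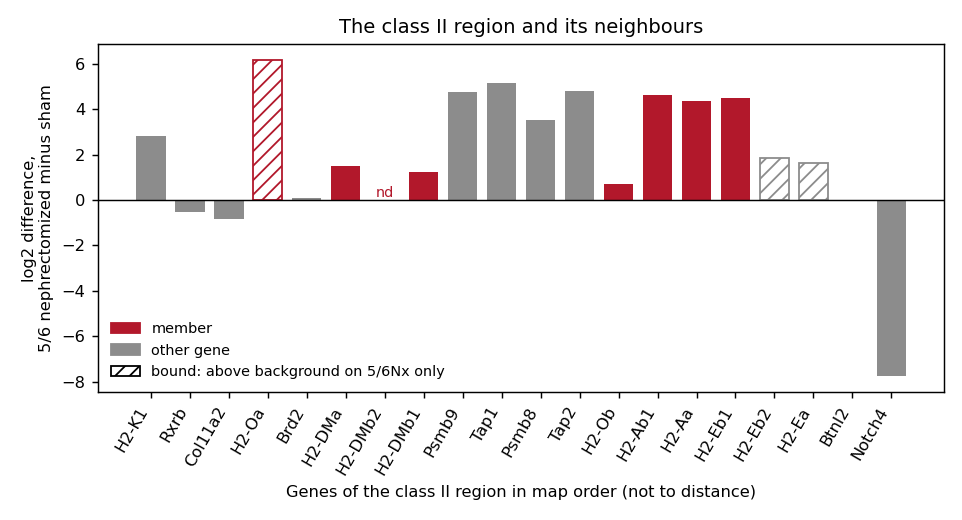
Difference in log2 units (5/6 nephrectomized minus sham) of genes of the class II region in map order, not to distance. Red marks the 8 members on chromosome 17 and grey other genes. Hatched bars are bounds, as defined in the text, for genes above background on the 5/6 nephrectomized array only, and nd marks H2-DMb2, not above background. Btnl2 is at -0.03. The high bars of Psmb9, Tap1, Psmb8 and Tap2 stand side by side, as do those of H2-Ab1, H2-Aa and H2-Eb1, with the low bar of H2-Ob between these runs.

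Genes for the control of Ciita were higher on the 5/6Nx array in 7 of 13 measured cases and lower in 0. Their median was 1.18, against -0.12 for all measured genes. Among those with large differences were Socs1, a feedback inhibitor of interferon signalling, at 6.10, Irf1, a factor that acts on the Ciita promoter, at 4.45, and Irf4 at 4.41. Ifng, interferon gamma itself, read 11298 on the 5/6Nx array and 11.5 on the sham array which puts it at least 714-fold higher. The receptor genes Ifngr1 and Ifngr2 differed by 0.08 and 0.18, and Spi1, the myeloid factor PU.1, by 0.04. The receptor kinase genes Jak1 and Jak2 differed by -0.02 and 3.14.

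The factors that bind class II promoters beside Ciita showed no common direction. Of 13 genes of the enhanceosome and its coactivators, 2 were higher, 1 was lower and the median was 0.02. Rfx5, the RFX subunit that contacts the X box, read 97.4 on the 5/6Nx array and 19.3 on the sham array, a difference of 2.03, while its partners Rfxank and Rfxap differed by 0.77 and -0.51. Kat2b, a histone acetyltransferase, was at 1.13, Atf1, a CREB family factor, at -1.10 and the coactivator Ep300 at -0.84. Other measured probes of Atf1 reached up to -0.33 and those of Ep300 up to -0.002. With the mean over measured probes, 0 of the 13 were at least 2-fold lower. With normexp background correction none of the 13 was at least 2-fold higher.

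Antigen processing genes did not share the direction of the chains. Of 13 measured, 4 were at least 2-fold lower and 1 higher, and the median was -0.86. Ctsd, the aspartic protease cathepsin D, read 52586 on the 5/6Nx array and 190464 on the sham array, a difference of -2.17. Ctsl, the cysteine protease cathepsin L, was at -2.05 and Lgmn, the asparaginyl endopeptidase, at -1.49. Ctsc, the protease that activates granzymes and other granule proteases, was the higher one, at 1.74. Ctss, which trims the invariant chain in most antigen-presenting cells, differed by -0.29 and Sppl2a, the membrane protease that clears its last fragment, by 0.62 with its brightest probe and by up to 1.18 with others. With median scaling 7 of the 13 were lower, and with spike-in scaling 3.

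Of the genes for turnover, Marchf1 and Marchf8, ubiquitin ligases that send class II molecules to degradation, differed by -0.14 and -1.12, and the other measured probe of Marchf8 by -0.87. Cd83, which opposes Marchf1, read 2390 on the 5/6Nx array and 246 on the sham array, a difference of 2.97. On the T cell side, 5 of 8 measured ligands and costimulators were higher and 0 were lower, and their median was 2.28. They included Cd40, through which helper T cells act on the presenting cell, at 5.87, the PD-1 ligand genes Pdcd1lg2 at 5.73 and Cd274 at 3.19, and the costimulator Cd86 at 2.65. Lag3, a T cell receptor for class II molecules, was above background on the 5/6Nx array alone, by at least 9.78-fold. Cd80, the related costimulator, differed by -0.24 with its brightest probe and by up to 1.19 with others.

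**Figure D4:**
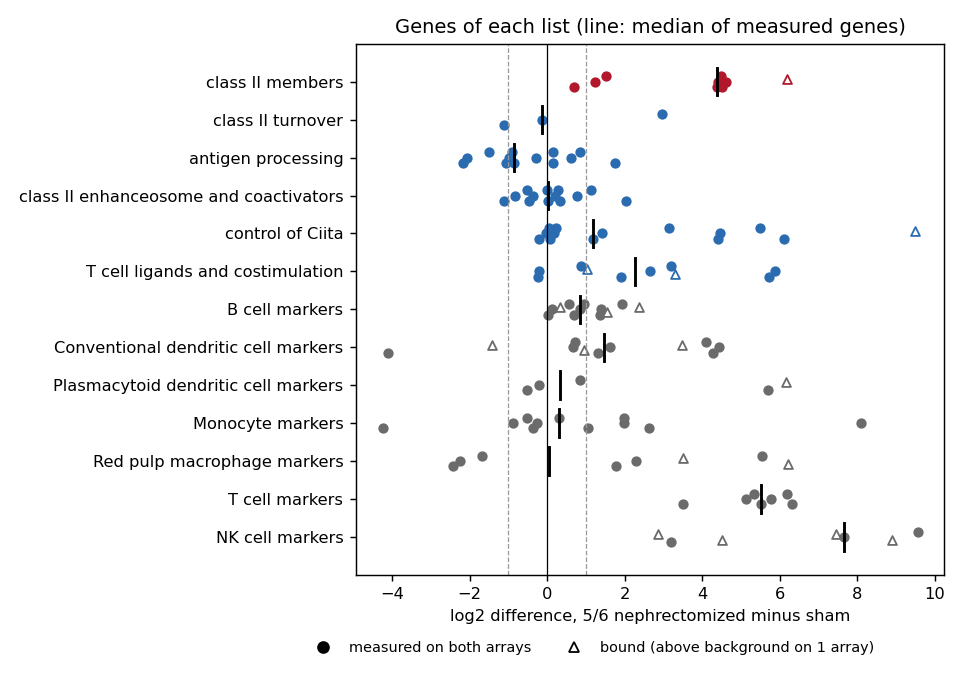
Difference in log2 units (5/6 nephrectomized minus sham) of each gene of the class II members, the other presentation lists and the cell type marker lists, with dots for genes measured on both arrays, triangles for bounds and a line at the median of at least 3 measured genes. The antigen processing median lies left of 0, and the T cell and NK cell markers lie far to the right, with medians of 5.50 and 7.67.

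Markers of other cells that can carry class II or react to it were read from the same arrays. B cell markers were at least 2-fold higher in 3 of 9 measured cases and lower in 0, with a median of 0.86 and a summed intensity of 3213 on the 5/6Nx array and 1542 on the sham array. The largest differences were 1.92 for Cd79b, a chain of the B cell receptor, 1.38 for Bank1, 1.36 for Ebf1 and 0.95 for Fcer2a. Of the defining B cell genes, Cd79a read 19.9 on the 5/6Nx array and 7.68 on the sham array, where it was not well above background, and Ms4a1, which encodes CD20, differed by 0.68 with its brightest probe and by 2.59 with the other. Conventional dendritic cell markers were higher in 5 of 8 cases and lower in 1, with a median of 1.48 and a summed intensity of 12622 on the 5/6Nx array and 23315 on the sham array. Among them Itgae was at 4.43, Batf3 at 4.28, Ccr7 at 4.09 and Clec10a at -4.12. Clec10a alone gave 1601 of the sum on the 5/6Nx array and 22415 on the sham array, and the other 7 genes summed to 11021 on the 5/6Nx array and 899 on the sham array. Xcr1 was not above background on either array. Clec9a read 30.6 on the 5/6Nx array and 2.81 on the sham array, and Zbtb46 199 and 14.5 in the same order, both not above background on the sham array. Cd209a read 11.6 on the 5/6Nx array, where it was not above background, and 29.6 on the sham array.

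The T cell marker genes with the largest differences were Cd3g at 6.31 and Cd3d at 6.19, chains of the T cell receptor complex, Cd8b1 at 5.78 and Lck at 5.50. T cell markers were higher in 7 of 7 measured cases, with a summed intensity of 30850 on the 5/6Nx array and 771 on the sham array. Measured NK cell markers were higher in 3 of 3, with sums of 36986 and 181 in the same order, and another 4 were detected by the 5/6Nx array alone. The measured ones were Gzma at 9.56, Il2rb at 7.67 and Prf1 at 3.20, and Nkg7 had the largest bound, at least 471-fold. Plasmacytoid dendritic cell markers were higher in 1 of 4 and lower in 0, with sums of 151185 on the 5/6Nx array and 105345 on the sham array. Siglech gave 109449 and 101444 of these in the same order, and the other 3 genes summed to 41736 and 3900. Bst2 alone read 38806 and 604, a difference of 5.70, while Ccr9 was at 0.85 and Tcf4 at -0.53. Ly6d was detected by the 5/6Nx array alone, at least 72.1-fold higher. Red pulp macrophage markers were higher in 3 of 6 and lower in 3, with sums of 52811 on the 5/6Nx array and 20211 on the sham array. Without the brightest gene, Adgre1, the sums were 7550 and 9486 in the same order. Spic was at 5.53, Cd5l at 2.29, C1qc at -2.42 and C1qa at -2.24. Another 2 were detected by the 5/6Nx array alone, led by Vcam1, at least 74.4-fold higher. Monocyte markers were higher in 5 of 11 and lower in 1, with sums of 878111 and 564598. Ly6c1 read 210831 on the 5/6Nx array and 43112 on the sham array, and Ly6c2 213343 and 43666 in the same order. The excess of the monocyte sum on the 5/6Nx array came from these genes of the sort antigen Ly6C. Of the monocyte genes, Cx3cr1 differed by -4.24. The sums run over the genes of a list measured on both arrays, in unscaled intensity. These markers differed beside the class II genes, and their part in the class II difference was not tested. In sorted cells measured as a bulk, more cells of a type and more RNA per cell cannot be told apart.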

How the data were processed

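Total RNA of both samples was amplified, labelled with Cy3 and hybridised to 1-colour Agilent arrays, per the labels' protocols. Values of each deposited scanner file are linear intensity, written by Agilent Feature Extraction, version 9.5.1.1 per the submitters' processing notes and 10.7.1.1 per the file headers. Spatial and multiplicative detrending and surrogate values for low spots were switched on for the processed signal, per the file headers, and both arrays share a scan time. The authors' deposited value table, also linear intensity, covers 52145 probes; no source used here gives its normalization.

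Processed intensities were divided by the 75th percentile of the non-control spots of the same array and taken to log2. Outlier flags removed 47 spots flagged on the 5/6Nx array and 41 flagged on the sham array, none of the 10 genes. Measured probes were those that passed the background call on both arrays, and the brightest of them stood for its gene. Other genes were named through accession, symbol or synonym in a RefSeq table (GRCm38.p6); no further probe mapped to the 10 genes by accession. Probe positions are those of the files (mm9), and exon annotation of that build was not used here. Repeat spots of 283 probes gave an SD of 0.0594 log2 units for a difference of single spots, and the number of arrays limits the precision. Differences past 2-fold were counted, with no test, and 13 alternatives were run. Genes named in the text are all members, all genes of the short lists, the 4 measured genes of each other list with the largest difference, and others chosen after their values were seen. A few genes that this rule would name are not reported here. The members and lists were chosen with earlier results of these data known. The steps were tested on simulated data. Python 3.11.15, pandas 2.3.3, R 4.3.3 and limma 3.58.1 were used.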

Additional observations from a re-analysis of the deposited data

How the results depend on the processing

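The count of members at least 2-fold higher lay between 6 and 8 over the 13 alternatives, against 7 as reported. It was 8 with spike-in scaling, where H2-Ob passed 2-fold, and 6 where dimmer genes than the median measured one were dropped, which leaves 6 members. With the looser filter on dim probes, or none, 1 member was lower (H2-DMb2, which is at background). The median difference of the members, 4.39 as reported, was 3.90 with normexp, 4.24 with median scaling, 4.61 with cyclic loess and 4.76 with spike-in scaling. H2-DMb1 ran from 1.1 to 1.62 and H2-DMa from 1.36 to 1.88 over 11 alternatives, and none of the 7 members past 2-fold changed sign in these; the same was not run gene by gene for the other lists. B cell markers at least 2-fold higher numbered 1 with normexp, 6 with spike-in scaling and 0 among brighter genes, against 3, and dendritic cell markers 3, 7 and 1, against 5. Over all genes, 1926 were higher and 1719 lower as reported, against 1164 higher with normexp, 3126 higher and 919 lower with spike-in scaling, 3685 higher and 2697 lower without a filter, and 709 higher and 909 lower among brighter genes. No paired analysis was possible because each group has 1 array. Dim probes, above all H2-Ob and the sham values of H2-Oa and of 2 Ciita probes, limit the size of their differences.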
